A study of Mus musculus with 12 samples.

Results

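MicroRNA genes were the genes whose symbol begins with Mir and a digit, or with Mirlet, in either of 2 lists that the authors deposited: the nearest genes of the ChIRP-seq peaks, and the genes with a promoter-associated non-coding RNA (ncRNA) captured by Mirlet7d. They were chosen by name among genes that the authors' lists already hold, which are limited to peaks with a score of at least 30.01 and to folds of about 2.5 or more. It gave 140 genes of the 4535 in either list. Of these, 98 were among the 3192 genes nearest to a peak and 47 among the 1624 genes of the ncRNA list, with 5 in both. All 140 enter the counts, 1 of them, Mir17hg, being the host transcript of a microRNA cluster rather than a hairpin.

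Both assays used MLE-12, an immortalised mouse line of lung epithelial origin. For the pull-down, biotinylated Mirlet7d was brought into the cells at 25 nM, and after 48 h the RNA bound to it was collected on streptavidin beads for sequencing, with an input RNA library beside it. The labels' protocol also names a random biotinylated microRNA, of which no captured library was analysed here. For ChIRP-seq, which recovers chromatin through biotinylated probes against an RNA, 150 pmol of probes tiling mature Mirlet7d were used, and the sample is also labelled as Mirlet7d gain of function, whereas its input is labelled control. Each group was 1 library, so there is no replicate error to set against any value. The tables are selected lists and hold no level with which the epithelial identity of the line could be checked.

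MicroRNAs are made from longer primary transcripts, from which the nuclear enzyme Drosha cuts a hairpin and the cytoplasmic enzyme Dicer a short duplex. The strand loaded into an Argonaute protein pairs with target RNAs mainly through its seed, bases 2 to 8 from the 5′ end. Many hairpins lie in introns of protein-coding genes and are transcribed with their host, and others have a promoter of their own. The let-7 family, to which Mirlet7d belongs, restrains growth and keeps cells differentiated, and part of the mature microRNA can also be found in the nucleus.

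The mature sequences of the captured microRNA and of the microRNAs that the results turn on are given as RefSeq lists them for GRCm38.p6, 5′ to 3′, with the seed in capitals. They show which of the genes described make microRNAs of the same family.
let-7d-5p: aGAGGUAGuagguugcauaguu
let-7i-5p: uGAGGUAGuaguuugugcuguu
miR-29b-3p: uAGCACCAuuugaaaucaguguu
miR-148a-3p: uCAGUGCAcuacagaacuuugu
miR-152-3p: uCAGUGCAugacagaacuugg
miR-103-3p: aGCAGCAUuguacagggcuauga
miR-107-3p: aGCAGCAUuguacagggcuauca
miR-21a-5p: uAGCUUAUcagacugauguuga
miR-21c: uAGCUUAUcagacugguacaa
miR-181c-5p: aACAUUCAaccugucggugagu
miR-23a-3p: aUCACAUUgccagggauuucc
miR-126a-3p: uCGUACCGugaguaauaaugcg
miR-6390: gAAUUGAUcaggauguaacca

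Few of the genes shared a seed. Mature sequences were listed for 123 of the 140 genes, 191 sequences in all, and 7 seeds occurred at more than 1 gene. Mir148a and Mir152 share the seed CAGUGCA, Mir103-2 and Mir107 share GCAGCAU, and Mir21 and Mir21c share AGCUUAU. All 6 of these genes were nearest to a ChIRP-seq peak, as were 98 of the 140. Of the pair that shares GUGGGAG, Mir6993 had a peak and Mir6922 had none. The seed of the let-7d guide strand, GAGGUAG, was found in 1 of the 191 mature sequences of these genes (0.524%), that of Mirlet7i, and in 13 of the 1738 mature sequences of the table (0.748%). The letters CUACCUC, the match to that seed, were present in the hairpin of 1 of the 114 genes with a listed hairpin (0.877%), Mir6372, and in 3 of 1005 hairpins of the table (0.299%). The strand as listed was searched, and the opposite letters GAGGUAG stood in 1 of the 114 (Mirlet7i) and in 1.89% of the table.

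The ChIRP-seq list placed 134 of its 4286 peaks next to microRNA genes. Of the 1190 genes named in this way with a curated RefSeq transcript, 98 were the nearest gene of a peak, or 8.24% (95% exact Clopper-Pearson interval 6.74 to 9.94%). The share over all 26220 curated genes was 12.1%. Intervals of shares and folds cover counting error only. With peaks of a score of at least 40 the share was 2.52% of microRNA genes, against 3.53% of all genes. With peaks within 10 kb of the annotated start it was 3.78%, against 5.98%. These shares were not tested against each other, and the genes of the table differ in length and spacing.

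The peaks next to microRNA genes were close to the others in median height and width. Their MACS score, which the authors deposited without stating its scale, had a median of 34.5 and ran from 30.09 to 136, against a median of 34.3 and a range of 30.01 to 3100 for the 4152 other peaks. A score of at least 40 was reached by 36 of the 134 (26.9%), against 24.8% of all peaks. The median width was 644 bases for peaks at microRNA genes and 646 bases for the rest. Repeats of any kind lay under 23 of the peaks at microRNA genes (17.2%, interval 11.2 to 24.6%) and under 23.8% of the others. Most genes had a single peak: 77 had 1, 12 had 2, 7 had 3, Mir6995 had 4 and Mir29b-1 had 8.

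Distance to these genes needs care, because the annotated start of a microRNA gene is the first base of its hairpin and not the start of the primary transcript. The microRNA genes of the table have a median length of 81 bases, from 39 to 139. The absolute distance of the peaks from this start had a median of 16739 bases for microRNA genes and 14193 bases for the others. Within 10 kb lay 52 of the 134 (38.8%), against 42.6% of all peaks, and within 1 kb 12 (8.96%, interval 4.71 to 15.1%), against 14% of the others. Upstream of the hairpin lay 60 of the peaks (44.8%) and for other genes 43.9%.

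By the class of the sequence under the peak, 62 of the 134 were intergenic (46.3%), 49 intronic (36.6%) and 8 in the promoter class (5.97%). The other peaks had 39.8%, 42.8% and 9.56%. All 8 promoter peaks were classed by the annotated start of a microRNA gene. That is the first base of a hairpin, so the class does not place them at the promoter of a primary transcript. The 5′ untranslated and non-coding classes held 0 of the 134, against 0.409% and 0.53% of the other peaks. As a ratio of the shares, though not in percentage points, the largest excess was in the 3′ untranslated region of a protein-coding gene. This class had 8 peaks (5.97%, interval 2.61 to 11.4%) against 46 of the 4152 others (1.11%, 0.812 to 1.48%). Here the peak lies on a protein-coding transcript while the microRNA start is the closest start. The 8 were those nearest to Mir26b, Mir6995, Mir691, Mir7060, Mir193b, Mirlet7i, Mir6993 and Mir103-2, some of them named here after their values were seen. For 5 of them the gene under the peak also holds the microRNA: Ctdsp1 (Mir26b), Sh3pxd2a (Mir6995), Robo2 (Mir691), Fbrs (Mir7060) and Fads1 (Mir6993).

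**Figure D1:**
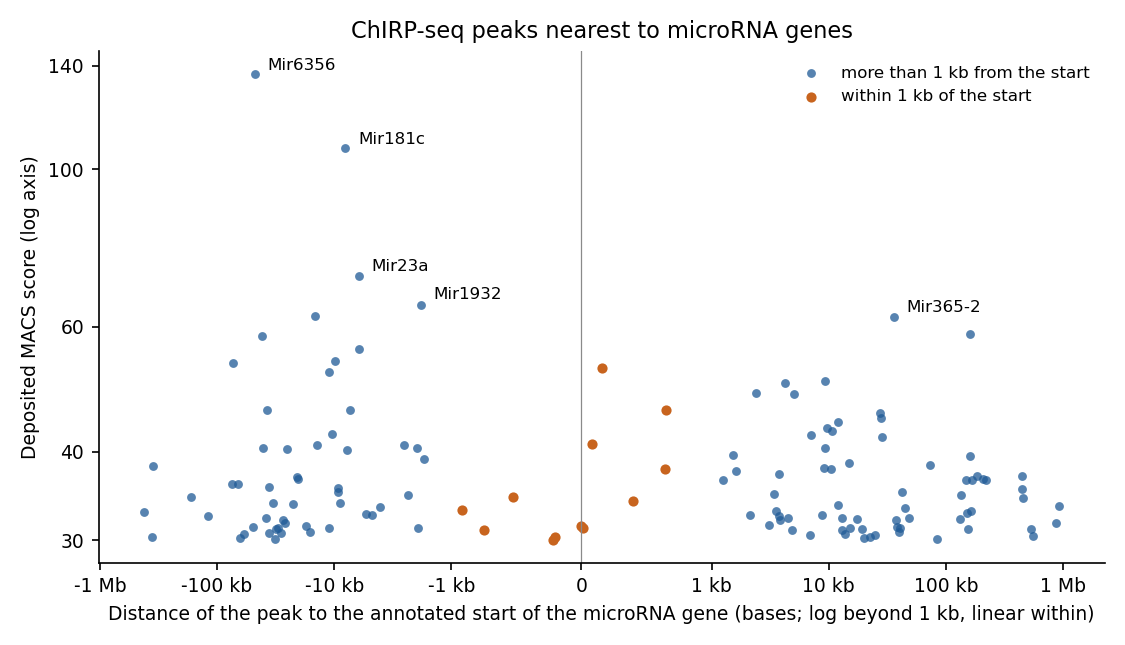
Deposited MACS score (log axis) against the distance of each of the 134 ChIRP-seq peaks to the annotated start of its microRNA gene (bases, log beyond 1 kb and linear within, negative upstream); orange points lie within 1 kb. The 2 highest scores, 136 at Mir6356 and 107 at Mir181c, lie upstream and beyond 1 kb, and the 12 points near the start reach at most 52.5.

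The highest score at a microRNA gene, 136, belonged to a peak 47205 bases upstream of Mir6356 on a repeat of large-subunit ribosomal RNA. It was followed by Mir181c, of a family that tunes signalling in developing lymphocytes, with a score of 107 at 8012 bases upstream and a second peak of 31.3 at 10965 bases upstream. Mir23a, the first hairpin of the Mir23a, Mir27a and Mir24-2 cluster, had a peak of 70.9 at 6170 bases upstream, on a SINE. These last 3 peaks stood close together, in 16.8 kb at chr8:86710058-86726854 (mm9), so that 2 microRNA clusters shared 1 group of peaks. Mir1932 had 3 peaks in 6.44 kb, of 64.4 at 1821 bases upstream on an LTR repeat, 52.5 at 157 bases downstream of the start and over the hairpin, and 32.7 at 5381 bases upstream.

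Some high peaks lay far from the hairpin. Mir365-2 had peaks of 62.03, 32.05 and 30.2 at 36075, 37347 and 19898 bases downstream. Mir148a, whose family is known to target the maintenance DNA methyltransferase, had 58.6 and 36.6 at 161468 and 206853 bases downstream. Mir129-1 had 53.4 at 73576 bases upstream and 43.2 at 9691 bases downstream. All 7 of these peaks were intergenic, and the microRNA was only the closest annotated start.

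Others of the 15 genes with the highest peaks lay closer. Mir7211 had 55.9 at 6077 bases upstream, and Mir6546 had 53.75 at 9816 bases upstream with 2 more peaks of 45.8 and 36.8. Mir193b, which acts in the formation of brown fat in mice, had 51.7 at 11086 bases upstream, overlapping a pulled-down ncRNA, and 35.6 at 35657 bases upstream in Mrtfb. Mir1668 had 50.01 and 31.5 in introns of the RNA helicase gene Ddx39a and a promoter peak of 33.1. Mir26b had 48.4 at 2369 bases downstream in Ctdsp1, and Mir8110 48.2 at 5040 bases downstream in Sall1, a zinc finger factor of development.

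Of the 12 peaks within 1 kb of a start, 6 covered the first base of the hairpin. Mir7649 had the peak closest to its start, 6 bases upstream, with a score of 31.5, and Mir6236 had 40.99 at 83 bases. The others were the peak of Mir1932 given above, that of Mir7687 (31.3, 12 bases from the start), that of Mir1945 (30.3, 206 bases upstream) and that of Mir7670 (30.09, 215 bases upstream). The peaks that did not reach the start were those of Mir7001 (34.1), Mir7662 (34.5), Mir6926 (37.8), Mir5119 (31.01), Mir1668 and Mir6546. Apart from Mir1932, Mir6546 and Mir6236 their scores were under 40, near the lowest listed score of 30.01.

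The gene with the most peaks was Mir29b-1. The miR-29 family represses collagens and other matrix genes and is low in fibrotic lung. Its 8 peaks lay in 52.4 kb at chr6:31020370-31072808 (mm9), all upstream of the hairpin, which begins at 31013093 on the minus strand. Their scores had a median of 36.1. The highest was 62.2 at 14450 bases upstream, and 58.3, 45.8 and 40.2 followed at 41680, 37528 and 7782 bases upstream. The other 4, from 30.66 to 32.05, lay between 27333 and 59247 bases upstream. Mir29a, the other hairpin of the cluster, was the nearest gene of no peak. Each peak was listed with a single nearest gene, so this does not set the hairpins apart.

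The same stretch held 4 pulled-down ncRNAs. NONMMUT056152, the one in the promoter-associated list, reached the first base of the hairpin from 402 bases upstream and had 4.97 RPKM in the pull-down, against 1 RPKM in the input (4.97-fold). An input of exactly 1 RPKM recurs in 19.5% of the list's other transcripts and may not be a measured level, so no fold that rests on it has an interval. NONMMUT056155, from 29791 to 30491 bases upstream, had 10.96 RPKM in the pull-down and 0.886 in the input (12.4-fold), and the peak of 31.3 overlapped it. NONMMUT056157 had 4.53 and 0.501 RPKM in pull-down and input (9.04-fold) and lay 611 bases from the peak of 58.3. NONMMUT056158 had 6.18 and 0.809 RPKM (7.64-fold), between the peaks of 58.3 and 30.7. Peaks and captured ncRNAs thus lay interspersed along the locus. Chromosome 6 is also 1 of 5 chromosomes on which peaks of the whole list were dense.

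**Figure D2:**
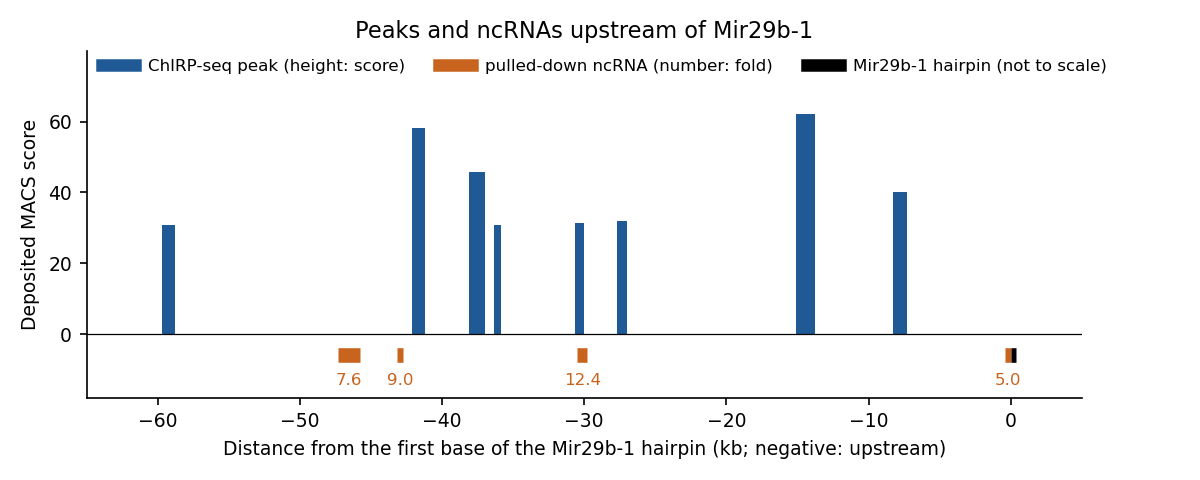
The 8 ChIRP-seq peaks upstream of Mir29b-1 (blue, height is the deposited MACS score) and the 4 pulled-down ncRNAs (orange, number is pull-down over input RPKM), by distance in kb from the first base of the hairpin. The peaks run from 7.28 to 59.7 kb upstream, and the ncRNA of 12.4-fold coincides with a peak.

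Of the other genes with at least 3 peaks, some had them inside a protein-coding gene. The 4 peaks of Mir6995 (40.5, 38.01, 35.98 and 30.6) spanned 80.6 kb, 3 of them in Sh3pxd2a, an adaptor of podosomes. The 3 of Mir701 (30.15 to 32.85) lay in introns of Ttc28 over 113 kb, and the 3 of Mir7661 (31.4 to 33.3) in introns of the calcium channel gene Itpr1 over 95 kb. Mir21c had 39.5, 34.45 and 33.01, all intergenic, from 160984 to 457323 bases downstream. None of these 4 genes had a peak with a score above 40.53.

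MicroRNA genes with a peak followed the uneven distribution of the list over chromosomes. On chromosomes 6, 8, 11, 16 and 19, where peaks of all kinds were dense, 49 of 258 microRNA genes had a peak (19%, interval 14.4 to 24.3%), against 27.7% of all genes there. On the other chromosomes 49 of 932 did (5.26%, 3.91 to 6.89%), against 7.3% of all genes. Chromosome 11 had the most, 15 of 88 microRNA genes, and chromosome 6 the highest share, 11 of 43 (25.6%, against 29.3% of all its genes). Chromosomes 2, 12 and X, which carry many microRNA genes, had 4 of 146, 4 of 94 and 2 of 90. Genes are counted here on their RefSeq chromosome, which was not always that of the peak. Of the 4 on chromosome 2, Mir684-1 had its peak on chromosome 5. Chromosomes 10, 14 and 18 had a higher share of microRNA genes than of all genes with a peak, on 3 to 6 genes each. On chromosome 17 the share was 3 of 39 (7.69%, against 6.16% of all genes), but 1 of the 3, Mir1195, had its peak on chromosome 16.

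**Figure D3:**
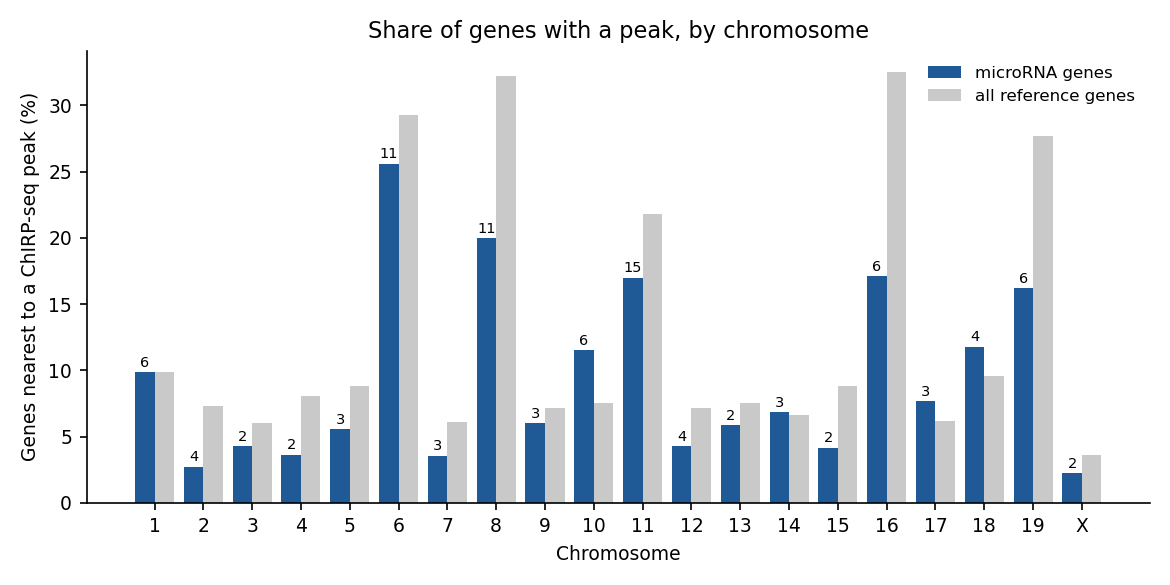
Share of curated genes nearest to at least 1 ChIRP-seq peak (percent), by the RefSeq chromosome of the gene, for microRNA genes (blue, number of genes above the bar) and for all genes (grey). On chromosomes 6, 8, 11, 16 and 19 the microRNA share runs from 16.2 to 25.6% and stays below that of all genes.

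The let-7 family and the other microRNA groups were represented by 0 to 3 genes each. Of 14 let-7 family genes, only Mirlet7i was nearest to a peak, of 33.9 in the 3′ untranslated region of Mon2, an endosomal trafficking gene. A captured ncRNA, NONMMUT007979, lay 1586 bases from that peak, with 2.6 RPKM in the pull-down and the recurrent 1 RPKM in the input. None of the 14 was in the promoter-associated list. Of 15 genes of the Mir17 cluster and its paralogs, which promote proliferation, Mir106b was the only 1 with a peak (39.1, 1716 bases upstream, in an intron of the replication helicase gene Mcm7).

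Of 18 epithelial microRNA genes only Mir205 had a peak, of 30.3 and 356066 bases upstream. The haematopoietic list had Mir142 (45.8, 7313 bases upstream) and Mir181c among its 15 genes. The stromal, endothelial and muscle list had 1 of 19, Mir145, a regulator of smooth muscle, with 37.3 in an intron of the cardiac long non-coding RNA gene Bvht. The fibrosis and stress list had 3 of 19, Mir29b-1, Mir23a and Mir21. Mir21, which is induced in fibrosis and many tumours, had a peak of 33.01 at 3576 bases downstream. The list of let-7 cluster partners had none of 7. With 0 to 3 genes each, the shares of these lists lay between 0 and 3 of 19, beside 12.1% for all genes, and the lists were not tested.

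Mir148a with Mir152, and Mir103-2 with Mir107, share a seed but had peaks at unlike distances. Mir152, in an intron of Copz2, had 40.5 at 9258 bases downstream, beside the distant peaks of Mir148a. Mir107 in Pank1 had 35.09 at 9327 bases upstream, and Mir103-2 in Pank2 had 31.3 at 15144 bases downstream, in the neighbouring gene Rnf24. The pantothenate kinase genes that hold this pair make the first enzyme of coenzyme A synthesis. Mir486 in Ank1, chosen after its value was seen, had 40.9 at 13952 bases upstream, 1121 bases from a captured ncRNA of 0.471 RPKM in the pull-down and 0.051 in the input. The 21 genes of microRNA processing and effector proteins, which are not microRNA genes, included 6 nearest to a peak (Ago1, Ago3, Ago4, Dgcr8, Drosha and Tnrc6c), Ago2 in the promoter-associated list and Prkra among the captured mRNAs. The shares over all genes were 12.1%, 6.17% and 5.75%, and this list was not tested either.

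The promoter-associated ncRNA list, a subset of 6208 ncRNA candidates, held 124 transcripts of 2432 at the 47 microRNA genes. They are 3.95% of the 1190 curated genes named in this way (interval 2.92 to 5.22%), beside 6.17% of all genes. Of the 47, 33 lay inside a protein-coding gene. As for the peaks, the annotated start of a hairpin gene is not that of its primary transcript. All listed folds are at least about 2.5 by the authors' selection, so enrichment as such is no finding here. The spread of the folds and the levels are what differs among genes. Folds are pull-down over input RPKM, which equals the deposited fold within 0.005.

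A single locus, Mir6390, accounted for 61 of the 124 transcripts and so for most summaries over transcripts. The 61 had 12 distinct spans within chr14:106020137-106043063 (mm9), overlapped into 1 locus, and each rested on 53 to 112 reads in the pull-down and 4 in the input. Their levels were 0.285 to 0.505 RPKM in the pull-down and 0.018 to 0.045 RPKM in the input, and their folds 8.57 to 18.3. Since their spans overlap, they are not independent measurements. Over all 124 transcripts the median fold was 14.03, and without Mir6390 it was 5.03 (63 transcripts), against 4.94 for the 2308 others. With 1 value per gene the medians were 5.53 for the 47 genes and 5.09 for other genes.

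With all transcripts counted, 94 of the 124 had a fold of at least 5 (75.8%), against 51.1% of the whole list, and 67 a fold of at least 10 (54%), against 25% of the whole list. Without Mir6390 the shares were 33 of 63 (52.4%, interval 39.4 to 65.1%) and 12 of 63 (19%, 10.2 to 30.9%). The other transcripts of the list had 49.7% and 23.4%. Apart from Mir6390, the median and both shares thus lay close to those at other genes. An interval from recovered reads could be given for 111 transcripts and lay above 1 in 110 and above 2.5 in 87. Without Mir6390 these were 50, 49 and 32. Among the other transcripts of the list 1772 had an interval, of which 1690 lay above 1 (95.4%) and 896 above 2.5 (50.6%). A list chosen for folds of at least 2.5 favours such intervals.

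**Figure D4:**
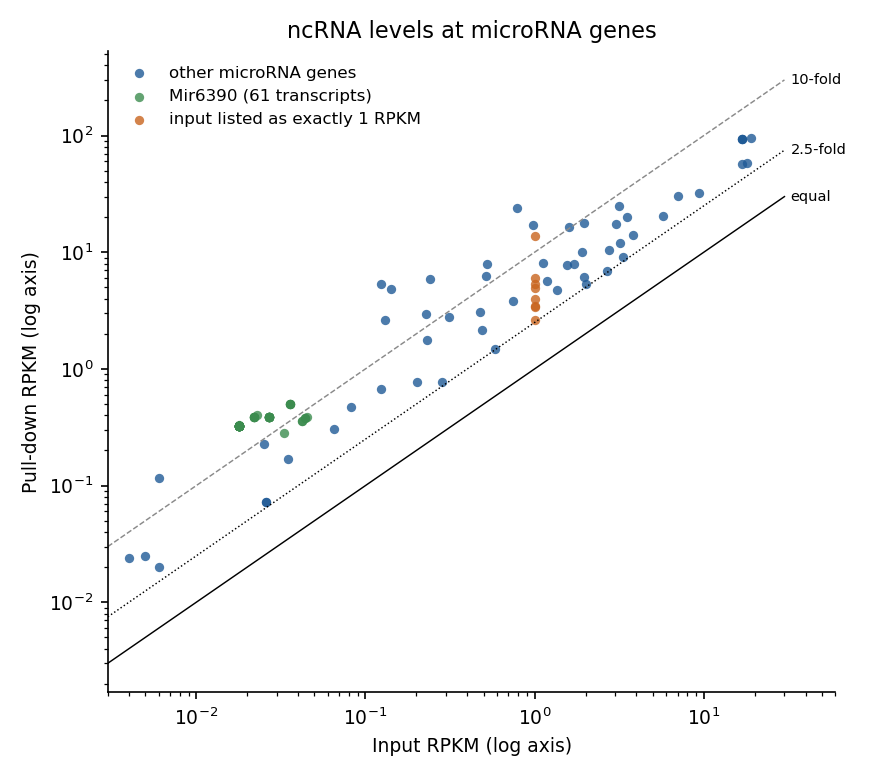
Pull-down RPKM against input RPKM (log axes) for the 124 promoter-associated ncRNAs at 47 microRNA genes; lines mark equal values, 2.5-fold and 10-fold. The 61 Mir6390 transcripts (green) form 1 tight group below 1 RPKM, and 8 transcripts (orange) share an input of exactly 1 RPKM.

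The highest median folds rested on few input reads. The ncRNA at Mir6945, inside Pdlim7, which encodes a protein of actin fibres, had 4.87 RPKM in the pull-down and 0.141 in the input (34.5-fold), from 107 and 2 reads, with a 95% exact interval of 6 to 1402. Pdlim7 was itself among the captured mRNAs, with 2 entries whose spans overlap the ncRNA. One had 2.57 RPKM in the pull-down and 0.937 in the input (2.74-fold), the other 2.47 and 0.938 RPKM (2.63-fold). Mir126a lies in Egfl7 and maintains vessel integrity in endothelium. One ncRNA there had 5.38 RPKM in the pull-down and 0.123 in the input (43.8-fold, 68 and 1 reads, 3.68 to 892). The other had 2.96 and 0.229 RPKM (12.9-fold, 20 and 1 reads), with an interval from 0.918 to 280 that holds 1. A lone input read was counted as a whole pair, so both intervals describe a ratio smaller than the fold beside them.

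Mir6385 lies in Pml, the gene of the nuclear body scaffold, and its ncRNA had 5.86 RPKM in the pull-down and 0.242 in the input (24.2-fold, 150 and 4 reads, 6.47 to 204). That at Mir6922 in Srebf1, a regulator of lipid synthesis, had 17.2 RPKM in the pull-down and 0.973 in the input (17.7-fold, 219 and 8 reads, 6.74 to 66.3). For these genes the lower bound stood above 5. Mir6897 in Uggt1, a glycoprotein folding sensor, had 2 unlike ncRNAs. One had 23.9 RPKM in the pull-down and 0.789 in the input (30.3-fold, 12.6 to 76.3). The other, at higher coordinates and not overlapping it, had 0.78 and 0.284 RPKM (2.75-fold, 1.13 to 8.31).

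The intervals of those 2 transcripts do not overlap, though they cover counting error only, with 1 library per group. Intervals also stood apart for 2 transcripts of overlapping span at Mir5620 (2.11 to 3.53 and 5.15 to 17.3). The same held for 2 at Mir6516 (2.72 to 3.74 and 3.85 to 6.69), though the remaining transcript there (2.87 to 3.99) overlaps both intervals. Transcripts of overlapping span share reads, so their intervals are not independent. Mir30d also had 2 ncRNAs of different fold, which had 2.64 RPKM in the pull-down and 0.13 in the input (20.3-fold, 5.4 to 172) and 7.73 and 1.56 RPKM (4.96-fold, 3.17 to 8.12), but their intervals overlap. Mir6970, in Skiv2l, had 7.94 and 0.523 RPKM (15.2-fold, 3.97 to 129), and its neighbour Mir6971 on chromosome 17 had 3.73-fold with an overlapping interval (1.97 to 7.9). Mir6972 beside them had 3.5-fold on the recurrent input of 1 RPKM. The ncRNA at Mir216a had 0.116 RPKM in the pull-down and 0.006 in the input, and rounding of the RPKM alone places its fold of 19.3 between 17.8 and 21.2. That at Mir1905 had 13.8 RPKM in the pull-down and the recurrent input of 1 RPKM.

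**Figure D5:**
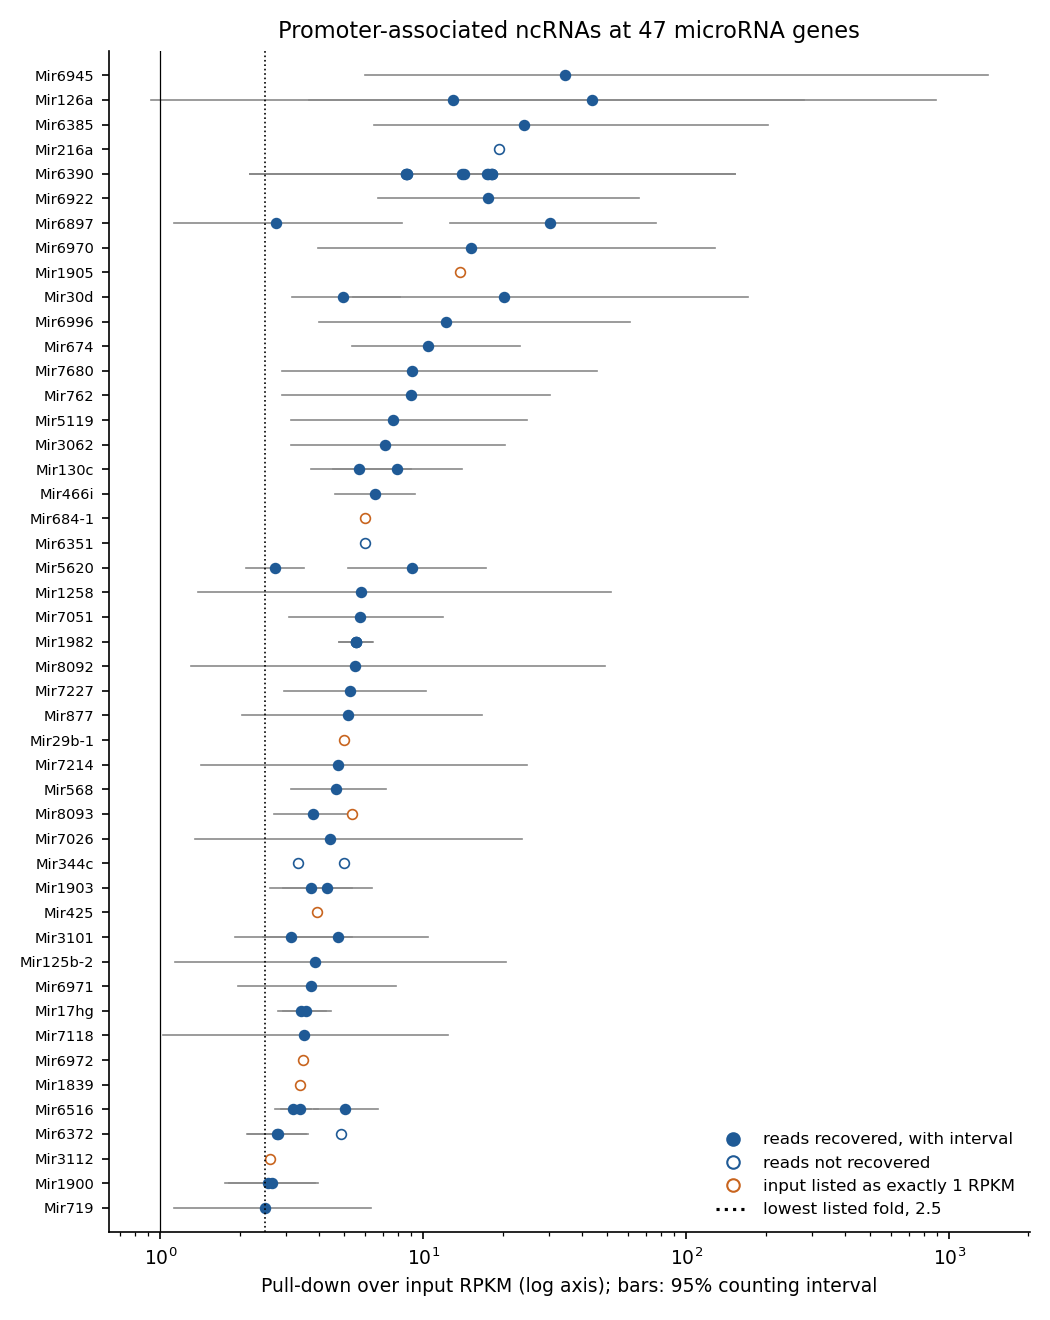
Pull-down over input RPKM (log axis) of every promoter-associated ncRNA at the 47 microRNA genes, ordered by median fold; bars are 95% exact counting intervals, open circles have none. Of the 47 genes, 12 have a median fold of at least 10, and the intervals widen to the right of the plot where input reads are few.

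The best measured ncRNAs had moderate folds. Those at Mir1982, inside the antizyme gene Oaz1, were 3 overlapping transcripts with 92.7 to 93.6 RPKM in the pull-down and 16.7 to 16.9 in the input. Their folds were 5.53 to 5.54, from about 3646 and 426 reads, with an interval of 4.79 to 6.4. At Mir6516 the levels were 95.3, 57.7 and 57.1 RPKM in the pull-down, against 18.9, 18.1 and 16.9 in the input, or 5.03-fold, 3.19-fold and 3.38-fold. The 95.3 RPKM was the highest pull-down level among the microRNA genes. Mir17hg, the host transcript of the Mir17 cluster, had ncRNAs of 20.6 and 5.76 RPKM in pull-down and input (3.59-fold, 2.92 to 4.45) and of 32.2 and 9.39 RPKM (3.43-fold). It was chosen after its values were seen, as it is the only host transcript.

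The lower folds included list members too. Mir125b-2, which is clustered with Mirlet7c-1 and Mir99a, was the only let-7 cluster partner, with 0.779 RPKM in the pull-down and 0.201 in the input (3.88-fold, 36 and 6 reads, 1.13 to 20.5). The 3 transcripts of Mir6372 were long and sparse, with 0.072 to 0.17 RPKM in the pull-down and 0.026 to 0.035 in the input. The lowest fold was 2.5 at Mir719. Of the fixed lists, the promoter-associated set thus held 1 of 7 let-7 cluster partners, 1 of 19 stromal, endothelial and muscle genes (Mir126a) and 2 of 19 fibrosis and stress genes (Mir29b-1 and Mir30d). The let-7, epithelial and haematopoietic lists had none, nor had the hairpins of the Mir17 cluster, whose host Mir17hg is not on that list. The share over all genes was 6.17% and over microRNA genes 3.95%. The lists were not tested, and counts this small cannot be placed above, below or near these shares.

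Few microRNA genes were in both assays. The 5 were 5.1% of the 98 genes with a peak and 10.6% of the 47 with an ncRNA, against 281 shared among all genes (8.8% and 17.3%). Besides Mir29b-1, Mir5119 in Cdk12, a kinase of transcript elongation, had a promoter-class peak of 31.01, 750 bases upstream of the hairpin. An ncRNA 1337 bases from this peak had 1.76 RPKM in the pull-down and 0.23 in the input (7.67-fold, 119 and 10 reads, 3.14 to 24.7). Mir7214 had a peak of 40.8 that overlapped its ncRNA of 0.308 and 0.065 RPKM in pull-down and input (4.74-fold, 1.42 to 24.7). Mir6516 had a peak of 44 that lay 10237 bases from the nearest of its 3 ncRNAs.

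The fifth, Mir684-1, does not stand for 1 place. Its peak of 40.4 is on chromosome 5 and its ncRNA, with 6 RPKM in the pull-down and the recurrent 1 RPKM in the input, on chromosome 11, while the RefSeq table has the gene on chromosome 2. Of the 140 genes, 137 were on the chromosome of the RefSeq table. The exceptions were Mir684-1, Mir1195 and Mir8099-1.

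By position, 16 of the 134 peaks lay within 10 kb of any captured ncRNA (11.9%, interval 6.98 to 18.7%), against 12.4% of all peaks. Within 1 kb there were 6, at Mir29b-1 (2 peaks), Mir193b, Mir7214, Mir6995 and Mir6931. The ncRNA under the Mir193b peak had 2.18 RPKM in the pull-down and 0.349 in the input (6.25-fold). Beside the Mir6931 peak, chosen after its value was seen, lay NONMMUT012197 with 139 RPKM in the pull-down and 38.7 in the input (3.58-fold). Overlap was found for 3 peaks (2.24%), against 3.47% of the others.

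Most of the genes lay within protein-coding genes, as microRNA genes do in general. The share was 96 of 140 (68.6%, interval 60.2 to 76.1%), against 66.7% of the 1190 in the table. The host was itself nearest to a peak for 30 of the 96, had a promoter-associated ncRNA for 6, and was among the captured mRNAs for 7. Of all protein-coding genes, 13.3% were nearest to a peak, 6.56% had such an ncRNA and 7.16% were among the captured mRNAs. A host near a microRNA gene with a peak shares its surroundings, and the difference was not tested. Copz2, a coat protein gene that holds Mir152, had an mRNA of 1.53 RPKM in the pull-down and 0.315 in the input (4.84-fold). Prmt2, an arginine methyltransferase gene that holds Mir678, had 3 mRNA entries between 3.89-fold and 3.91-fold. Ttc28, under the 3 peaks of Mir701, had 0.108 and 0.029 RPKM (3.72-fold), and Pdlim7, Dcakd and Fbrs had 2.74-fold, 2.88-fold and 2.56-fold at most. The seventh was Kdelc2, which holds Mir130c, with 1.52 RPKM in the pull-down and 0.404 in the input (3.75-fold). MicroRNA genes with high numbers, from 5000 upward, made up 54 of the 98 with a peak (55.1%, 44.7 to 65.2%) and 22 of the 47 with an ncRNA (46.8%, 32.1 to 61.9%), against 40% of the table.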

How the data were processed

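Per the submitters' processing notes, both assays used FastQC, Bowtie2, SAMtools, bedtools (2.15 for the pull-down) and HOMER on genome mm9, with Trimmomatic and Picard 1.119 for the pull-down only and MACS for ChIRP-seq only. Parameters, and whether strand was used in counting, are not given in the sources used here. Per the file headers, the pull-down tables hold RPKM of pull-down and input (rounded to 3 decimals) and their fold, a ratio. The ChIRP-seq tables hold the deposited MACS score, a class, the distance to the nearest start and the nearest gene. That score was used only to describe and rank peaks within the list.

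RPKM times length fell on whole multiples of 1 read (within 0.15 reads for 100% of those that carry enough decimals), giving denominators of 14.97 M reads for the pull-down and 9.66 M for the input of the ncRNA table. Exact conditional intervals (95%, SciPy 1.17.1) were made from these reads, taken as pairs because 70.1% and 79.2% of the numbers in pull-down and input were even. They compare 2 libraries, PCR copies are not separable, and overlapping transcripts share reads. The depth behind a peak is unknown. The script was tested on simulated data.

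Names, chromosomes and hosts came from a RefSeq table of GRCm38.p6, with no coordinates carried between builds. Deposited names were kept, and the accession of 1 of the 47 genes, Mir5620, belongs to Clcn4. Gene lists were the let-7 family, its cluster partners, Mir17 cluster with paralogs, epithelial, stromal with endothelial and muscle, haematopoietic, fibrosis and stress microRNAs, and processing genes. The members and lists were chosen with earlier results of these data known. Named were the 10 genes with the highest median ncRNA fold, the 15 with the highest peak, those in both assays, with a promoter peak or one within 1 kb, with at least 3 peaks or transcripts, and list members, of which 1 is not reported here. Alternatives were the score, distance, repeat, chromosome, fold, input, merging, naming and read-pair choices. The other libraries were not analysed here.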

Additional observations from a re-analysis of the deposited data

How the results depend on the processing

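Of the 134 peaks at microRNA genes, 36 remained with a score of at least 40, 52 within 10 kb of the start and 54 without chromosomes 6, 8, 11, 16 and 19. The share of microRNA genes with a peak, 8.24%, was 2.52% with the higher scores and 3.78% within 10 kb. The 124 transcripts formed 51 loci when overlapping ones were merged, and 63 were left without Mir6390, a setting chosen after the data were seen. The median fold of 14.03 was 5.53 with 1 value per gene and 5.03 without Mir6390. Genes in both assays numbered 10 instead of 5 when a peak within 10 kb of any captured ncRNA counted. This is a different measure, and the 10 do not include all of the 5, since Mir6516 and Mir684-1 drop out. The 16 peaks near such an ncRNA were 6 within 1 kb and 65 within 100 kb. Without multi-copy repeats (132 peaks), without inputs of exactly 1 RPKM (116 transcripts, median 14.2), at a fold of at least 5 (94), with names from accessions (124) or with reads counted singly (111 intervals above 1 and 95 above 2.5) the values moved less than 1.5 times. Under the naming alternative the 124 were not the same transcripts, since the 2 of Mir5620 left the set and 2 others entered. No paired analysis was possible because each group has 1 library. With no replicate and no control capture analysed, no difference can be set against the spread between samples, and folds on 1 to 4 input reads are fixed only to within their intervals.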
